A study of Mus musculus with 2 samples.

Results

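A lung library of sorted regulatory T cells also held 59 barcodes that carried at least 100 unique molecular identifiers (UMIs) of Sftpc or of Scgb1a1, genes of lung epithelium. They were selected on those UMIs alone, among 8641 lung barcodes that showed 200 genes or more and no more than 10% of UMIs from mitochondrial genes. The 59 made up 0.683% of these barcodes and 1.60% of their UMIs. Sftpc UMIs were the more numerous in 52 of them, here called the Sftpc side, and Scgb1a1 UMIs in 7, called the Scgb1a1 side. The remaining 8582 lung barcodes are called other lung barcodes. The series holds 15331 barcodes in all.

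The series profiled regulatory T cells of adult mouse lung and back skin by single-cell RNA sequencing with 10x Single Cell 3' v2 chemistry, 1 library per tissue. The lung came from Foxp3-GFP C57Bl/6 mice of a strain that the labels name Tachilla, and the skin from Foxp3-CreERT2GFP C57Bl/6 mice. In both alleles GFP reports the locus of Foxp3, the transcription factor of regulatory T cells, and both tissues were digested with collagenase before GFP+ CD4+ CD3+ CD45+ events were sorted. An epithelial cell was therefore outside the gate, and how these barcodes passed it was not tested. With 1 lung library, every value below describes these barcodes, and no difference has a replicate check.

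Sftpc encodes surfactant protein C, which alveolar type 2 cells make with the other surfactant proteins and the lipids that they store in lamellar bodies and release to lower the surface tension of the air space. Alveolar type 2 cells also act as progenitors of the flat alveolar type 1 cells, and they carry MHC class II and antimicrobial proteins. Scgb1a1 encodes the secretoglobin that club cells of the airways secrete, and club cells are rich in enzymes that oxidise and conjugate inhaled compounds.

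The UMIs by which the barcodes were chosen are given as a description. Sftpc ran over 128, 1591 and 2699 UMIs (lowest, median and highest) on the Sftpc side, where 44 of 52 barcodes had 1000 or more. Scgb1a1 ran over 1724, 2550 and 18003 UMIs on the Scgb1a1 side. The members nearest to the limit had 128 and 456 Sftpc UMIs, and the barcodes just outside it had 64 and 42. In all, 8 other lung barcodes carried 10 to 99 UMIs of either gene. Those at 64 and 42 Sftpc UMIs held 59 and 28 UMIs of 20 alveolar type 1 genes and no Cd3 or T cell receptor UMI. Another, with 11 Scgb1a1 UMIs, held 249 UMIs of 20 ciliated cell genes. A single member passed the limit for both genes, with 2159 Sftpc and 122 Scgb1a1 UMIs. A further 2 barcodes with 380 and 610 Sftpc UMIs were left out because 24.8% and 12.8% of their UMIs were mitochondrial. In the skin library both genes had 0 UMIs in 6601 barcodes.

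**Figure D1:**
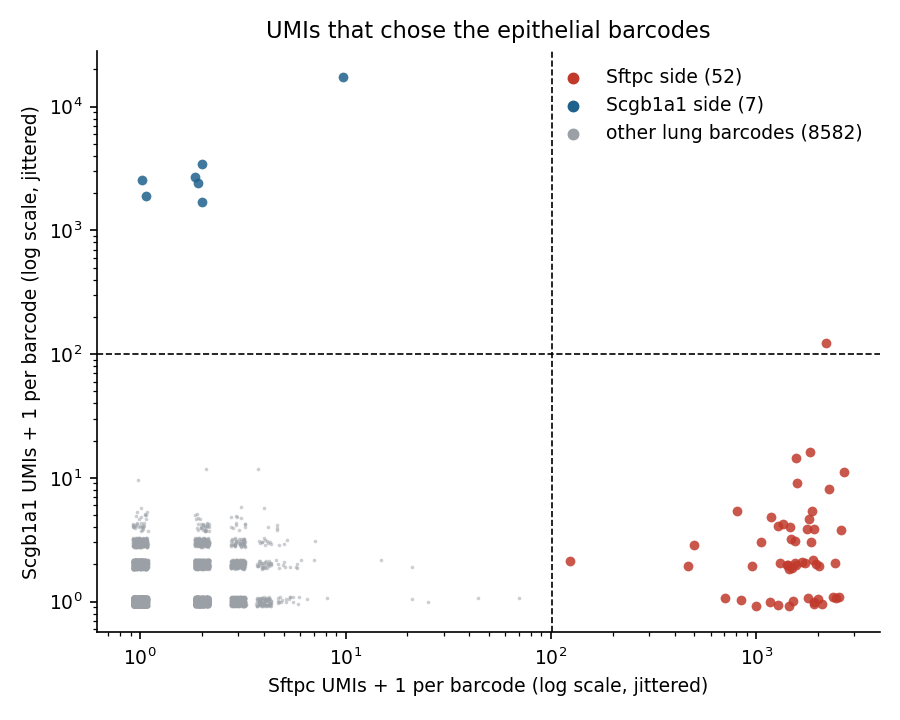
Sftpc UMIs (x axis) and Scgb1a1 UMIs (y axis) per lung barcode, both plus 1 on log scales with jitter, for the 52 barcodes of the Sftpc side, the 7 of the Scgb1a1 side and the 8582 other lung barcodes. The dashed lines mark 100 UMIs, and 1 barcode lies beyond both.

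Except in mitochondrial shares, where they are kept unless stated, both genes were left out of all totals and levels. Without them the Sftpc side held 255008 UMIs (393, 4272.5 and 13270 per barcode), the Scgb1a1 side 17281 (522, 840 and 12515) and the other lung barcodes 23827567 (499, 2359 and 25803). Sftpc and Scgb1a1 took a median of 26.3% of the UMIs of a barcode on the Sftpc side and 74.9% on the Scgb1a1 side. The deepest barcode of the Scgb1a1 side held 72.4% of that side's remaining UMIs, which leaves 4766 UMIs in the other 6. Levels are counts scaled to a common total (CPM), so that 1 UMI is worth 3.92 CPM on the Sftpc side and 57.9 CPM on the Scgb1a1 side. A level of 0 was read against 3 UMIs over the side, 11.8 CPM on the Sftpc side and 174 CPM on the Scgb1a1 side. Ranges in parentheses are exact 95% intervals that cover counting error only. Lung and skin shared 82 barcode sequences, of which 1 is a member.

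The Sftpc side carried the alveolar type 2 programme at high levels. Sftpa1 and Sftpb, which encode further surfactant proteins, Lyz2, a lysozyme gene, and Cxcl15, which encodes a chemokine of lung epithelium, had UMIs in all 52 barcodes. The log2 ratio of CPM + 10 was at least 2, a 4-fold difference, for all 28 alveolar type 2 genes listed beside Sftpc, against 14.7% of the 3263 genes with at least 50 CPM in either set. The median log2 ratio was 6.21 over the list and 0.17 over all these genes. A gene can enter such a count through the Sftpc side alone, as 27 of the 28 did, and of all 1067 genes that entered this way 41.4% were 4-fold higher. Counts of the lists below are therefore descriptions, given with the number of listed genes that did not reach 50 CPM. In all, 481 genes were 4-fold higher and 243 (7.45%) 4-fold lower on the Sftpc side than in other lung barcodes, so that 66.4% were higher. That share was 51.5% with Sftpc and Scgb1a1 kept in the totals, 53.9% with mitochondrial and ribosomal protein genes left out of them and 46.8% with median-of-ratios scaling, which put the median of all genes at −0.43, −0.31 and −0.55. Ribosomal protein genes took 18.4% of UMIs on the Sftpc side, 20.1% on the Scgb1a1 side and 37.9% in other lung barcodes.

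Among surfactant protein genes, Sftpa1 (ENSMUSG00000021789) ran over 12, 178.5 and 401 UMIs per barcode on the Sftpc side, or 11.5, 40.0 and 65.1 per 1000. On the Scgb1a1 side the 7 barcodes, from the deepest to the shallowest, held 65, 7, 10, 10, 7, 0 and 3 UMIs, and 8074 of the other lung barcodes held none. The sides met at the edge, where the lowest barcode of the Sftpc side stood at 11.5 and the highest of the Scgb1a1 side at 11.9 per 1000. Summed, Sftpa1 stood at 36709 CPM on the Sftpc side, 5902 CPM on the Scgb1a1 side and 22.5 CPM in other lung barcodes, a ratio of 1635 (1498 to 1787) between the Sftpc side and the others. Sftpb, whose product packs lipid in lamellar bodies, stood at 18964, 6250 and 12.9 CPM in the same order. Sftpd, which encodes a collectin that binds microbes, stood at 4596, 1794 and 2.18 CPM. Surfactant proteins A, B and D thus took 6.03% of the remaining UMIs of the Sftpc side.

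Lyz2 (ENSMUSG00000069516) was the most abundant of the named genes on the Sftpc side, with 20, 219 and 661 UMIs per barcode and 52873 CPM (51984 to 53773). A single UMI was found on the Scgb1a1 side, against 47.1 CPM in other lung barcodes. Macrophages also express Lyz2, and the Sftpc side held 20 UMIs of 21 macrophage and monocyte genes, with 0 for Csf1r, Adgre1 and Marco and 1 for Cd68. The secretory and lipid genes followed. Scd1, the gene of a stearoyl-CoA desaturase, had 0, 19.5 and 62 UMIs per barcode and stood at 4545 CPM, with no UMI on the Scgb1a1 side and 3.61 CPM in other lung barcodes. Slc34a2, a phosphate transporter gene of the type 2 cell, stood at 3059 CPM on the Sftpc side, 231 CPM from 4 UMIs on the Scgb1a1 side and 1.85 CPM in the others. Napsa, whose protease trims surfactant protein precursors, stood at 2518, 57.9 and 1.97 CPM, and Lamp3, a lamellar body membrane gene, at 874, 0 and 0.671 CPM.

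Of 20 lamellar body and surfactant processing genes, 16 reached 50 CPM, 13 of them through the Sftpc side alone. Of the 16, 13 were 4-fold higher on the Sftpc side than in other lung barcodes (median log2 ratio 4.04). Of 33 lipid synthesis genes, 23 reached it, 21 of them through the Sftpc side alone. Of the 23, 16 were 4-fold higher (median 2.36), with none 4-fold lower in either list. Over all genes 14.7% were 4-fold higher, with a median of 0.17. Fasn, the fatty acid synthase gene, stood at 514 against 8.94 CPM, Scd2 at 471 against 10.0 CPM and Elovl1, a fatty acid elongase gene, at 918 against 38.5 CPM. Acaca, which encodes acetyl-CoA carboxylase, stood at 90.2 against 2.98 CPM. Pparg had 1 UMI on the Sftpc side. Abca3, the gene of the transporter that loads lipid into lamellar bodies, stood at 533 CPM (447 to 631) against 10.2 CPM, and Lpcat1, which remodels surfactant phosphatidylcholine, at 843 against 25.5 CPM.

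MHC class II genes were high on the Sftpc side, while the 10 listed had 1 UMI in all on the Scgb1a1 side. Cd74, which encodes the invariant chain, had 1, 23 and 106 UMIs per barcode on the Sftpc side and stood at 5961 CPM (5665 to 6268), with 1 UMI on the Scgb1a1 side and 96.8 CPM in other lung barcodes. In single other lung barcodes Cd74 reached 62.3 and the 10 class II genes together 129 UMIs per 1000, against 14.7 and 23.7 at most on the Sftpc side. H2-Aa and H2-Ab1, genes of the class II chains, stood at 1102 and 1023 CPM on the Sftpc side, had no UMI on the Scgb1a1 side, and stood at 20.2 and 28.6 CPM in the others. Against the limit of 3 UMIs they were at least 6.35-fold and at least 5.90-fold higher on the Sftpc side than on the Scgb1a1 side. Of 10 class II genes 7 reached 50 CPM, of which 5 were 4-fold higher than in other lung barcodes and Ctss, a cathepsin gene, was 4-fold lower at 35.3 against 181 CPM. Class I genes were not higher on the Sftpc side. B2m, the common light chain gene, stood at 1447 CPM (1303 to 1602) on the Sftpc side against 4401 CPM in other lung barcodes, and 0 of 11 class I genes were 4-fold higher, with 1 lower (median log2 ratio −1.35), or 5 lower without 8 barcodes, described below as mixed, that also held many T cell or fibroblast UMIs. B2m had 5 UMIs on the Scgb1a1 side.

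Of 22 innate defence and complement genes, 10 did not reach 50 CPM. The other 12 reached it through the Sftpc side alone and were 4-fold higher there than in other lung barcodes, 11 of them without the 8 mixed barcodes. Chil1, a chitinase-like lectin gene, stood at 2878 against 2.39 CPM. Hc, the complement component 5 gene, stood at 773 against 0.546 CPM, and Lcn2, which encodes an iron-siderophore binding protein, at 812 against 4.62 CPM. Neither had a UMI on the Scgb1a1 side. Il33, an alarmin gene, had 52 UMIs on the Sftpc side, 204 CPM (152 to 267), no UMI on the Scgb1a1 side and 17 in the 8582 other lung barcodes. Il33 and Cxcl15 were the cytokine genes 4-fold higher, of 28 listed and 3 that reached 50 CPM. Tslp, Csf2 and Csf1 had 0 UMIs on the Sftpc side, and Areg, which encodes an EGF receptor ligand, had 7. Of 27 receptor genes 11 reached 50 CPM, and 2 were 4-fold higher and 1 lower, against 14.7% and 7.45% of all genes. Their median log2 ratio was 0.13, against 0.17 over all genes. Fgfr2, which receives fibroblast growth factors, was among the higher, with 47 UMIs on the Sftpc side against 5 in all other lung barcodes. Ifngr1 was the lower, at 74.5 against 448 CPM.

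Transcription factor genes of lung epithelium were low in count and present. Nkx2-1, a lineage factor of lung epithelium, had 89 UMIs on the Sftpc side, 349 CPM (280 to 429), against 10 UMIs and 0.42 CPM in other lung barcodes. On the Scgb1a1 side it had 5 UMIs, all in the deepest barcode. Etv5 and Cebpa, factors of the type 2 cell, stood at 325 and 278 CPM on the Sftpc side against 1.59 and 3.02 CPM in the others. Of 25 listed factors 13 reached 50 CPM, 12 of them through the Sftpc side alone, and 12 were 4-fold higher. Of 28 junction and keratin genes 16 reached it and 15 were 4-fold higher, among them Cldn18, a claudin gene of the alveolus, at 537 against 2.27 CPM, and Epcam, an epithelial adhesion gene, at 169 against 5.16 CPM.

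The 7 barcodes of the Scgb1a1 side carried the club cell enzymes. Because 1 UMI exceeds the 50 CPM limit there, genes were also counted under a rule, added after the data were seen, that asks for 10 UMIs on this side or for a level elsewhere that would give 10. Under it 17 of 35 club cell genes were counted and those 17 were 4-fold higher than in other lung barcodes, against 26.4% of 329 genes, and 10.6% of these were 4-fold lower. Of 35 xenobiotic metabolism genes 13 were counted and those 13 were 4-fold higher. A gene can meet this rule through 10 UMIs on the Scgb1a1 side alone, so these counts are descriptions. Without the rule 4470 genes were counted, of which 1021 (22.8%) were 4-fold higher and 728 (16.3%) lower, so that 58.4% of the calls were higher. Of the 4470, 2274 were counted through the Scgb1a1 side alone, and 961 (42.3%) of these were 4-fold higher. So were 23 of the 23 club cell genes and 22 of the 24 xenobiotic metabolism genes that entered this way, of 24 and 26 counted. The counts of both lists are therefore descriptions. Of the 728, 657 were counted through the other lung barcodes alone, where each gene so counted had 0 UMIs on the Scgb1a1 side and a call was fixed by the limit. The share of higher calls was 40.7% without the deepest barcode and 41.2% with a limit of 20 CPM. It was 13.5% with both marker genes in the totals, 39.8% without mitochondrial and ribosomal protein genes and 33.8% with median-of-ratios scaling, at medians of −1.55, 0.26 and −0.10.

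Cyp2f2 (ENSMUSG00000052974), a cytochrome P450 gene of club cells, had 152, 12, 15, 15, 9, 6 and 5 UMIs in the 7 barcodes from the deepest to the shallowest. That is 9.58 to 17.9 per 1000 in every barcode, against 0.253 per 1000 at most on the Sftpc side, where 2 of 52 barcodes had a UMI. Cyp2f2 stood at 12384 CPM (10780 to 14159) on the Scgb1a1 side, 13009 CPM without the deepest barcode, against 7.84 CPM on the Sftpc side and 2.35 CPM in other lung barcodes. With 2 UMIs on the Sftpc side the ratio between the sides, 1579, has a counting interval of 432 to 13122. Cbr2 (ENSMUSG00000025150), a carbonyl reductase gene, had 396, 14, 25, 24, 11, 15 and 5 UMIs. Its level was 28355 CPM on the Scgb1a1 side and 19723 CPM without the deepest barcode, against 3392 CPM on the Sftpc side and 16.8 CPM in the others. The lowest of the 7 barcodes had 9.58 Cbr2 UMIs per 1000, above the highest of the Sftpc side at 7.07.

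Aldh1a1, an aldehyde dehydrogenase gene, had 62, 3, 6, 2, 3, 3 and 7 UMIs in the 7 barcodes and 9 UMIs in all 52 of the Sftpc side. Hp, the haptoglobin gene, stood at 8449 CPM (7134 to 9936) on the Scgb1a1 side, 984 CPM on the Sftpc side and 3.06 CPM in other lung barcodes. Selenbp1, a selenium binding protein gene, stood at 6481, 478 and 11.5 CPM in these sets. Gsto1, a glutathione transferase gene, and Cldn10, a claudin gene, had 20 of 21 and 14 of 16 UMIs in the deepest barcode. Scgb3a2, a second secretoglobin gene, had 19, 33, 1, 2, 1, 1 and 0 UMIs and none on the Sftpc side, at least 280-fold higher against the limit of 3 UMIs. A barcode of 1194 UMIs thus held 33 of the 57 Scgb3a2 UMIs. Scgb3a1 and Bpifa1, secretory genes of upper airways, had no UMI in any member.

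The Scgb1a1 side was not free of genes listed for the alveolar type 2 cell. Besides Sftpa1, Sftpb had 84, 2, 8, 4, 1, 5 and 4 UMIs in the 7 barcodes, so that each had at least 1. Sftpd had 18, 2, 5, 4, 2, 0 and 0 UMIs, and Cxcl15 48, 0, 3, 5, 3, 1 and 1. Together the 3 surfactant genes ran over 5, 11 and 167 UMIs per barcode on the Scgb1a1 side, or 8.20, 13.4 and 26.6 per 1000. The barcode with 64 Sftpc UMIs had 14, the most of the other lung barcodes, whose highest level was 6.77 per 1000. Cxcl15 stood at 7059 CPM (6736 to 7392) on the Sftpc side and 3530 CPM (2700 to 4534) on the Scgb1a1 side, and Sftpb at 18964 and 6250 CPM. In contrast to these, Lyz2 and Cd74 had 1 UMI each and Lyz1 and Scd1 none on the Scgb1a1 side. Lyz2 in the 6 shallower barcodes was at 0. The ratio for Lyz2 between the sides was 914, with a counting interval of 164 to 36092 because of the single UMI, and Scd1 was at least 26.2-fold higher on the Sftpc side.

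**Figure D2:**
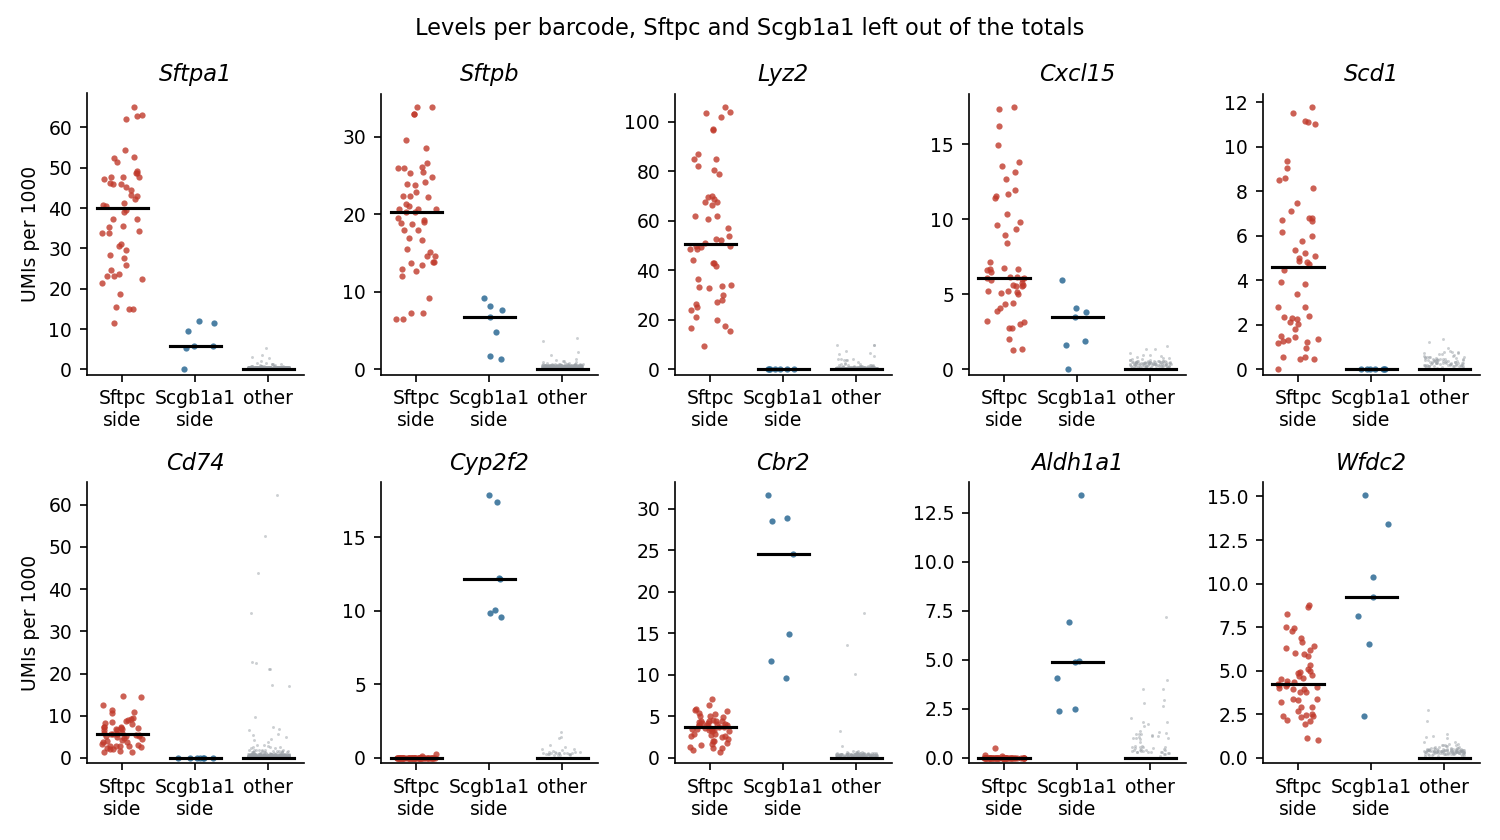
UMIs per 1000 UMIs of each barcode (y axis, linear, Sftpc and Scgb1a1 left out of the totals) for 10 genes on the Sftpc side (52 barcodes), on the Scgb1a1 side (7) and in other lung barcodes (8582). Each point is a barcode and each black line a median. Sftpa1, Sftpb and Cxcl15 are above 0 on both sides, Lyz2, Scd1 and Cd74 on the Sftpc side, and Cyp2f2 in all 7 barcodes of the Scgb1a1 side.

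The sides were also set against each other. Under the 10 UMI rule 17 of 22 alveolar type 2 genes were 4-fold higher on the Sftpc side and 1, Cbr2, was 4-fold lower, against 9.82% of 326 genes in each direction. Of club cell genes 0 of 17 were 4-fold higher and 14 were 4-fold lower on the Sftpc side, and of xenobiotic metabolism genes 0 and 11 of 13. A gene can meet this rule through the side where it is high alone, so these counts are descriptions. Without the rule 22 of 28 alveolar type 2 genes were 4-fold higher, against 16% of 4490 genes, and 18 of the 24 club cell genes counted, of 35, were 4-fold lower, against 11.4%. A gene at 0 on the Scgb1a1 side that reached 50 CPM on the Sftpc side was 4-fold higher in 677 of 677 cases, 9 of them on the alveolar type 2 list. Of the 19 alveolar type 2 genes that reached 50 CPM on both sides 13 were 4-fold higher and 1 lower, against 40 and 33 of all 1877 such genes. Among other lists, the 6 class II genes counted, of 10, had a median log2 ratio of 6.02, or 1.94 with the 5 at 0 on the Scgb1a1 side set to 3 UMIs. The 7 fibroblast genes counted, of 14, had one of 4.16, or 1.07 with the 6 at 0 so set. Both medians were then under 4-fold, and most of the fibroblast UMIs lay in the 2 barcodes described below. The median log2 ratio was 4.16 over the alveolar type 2 list, or 2.54 with the 9 genes at 0 on the Scgb1a1 side set to 3 UMIs. It was −3.00 over the club cell list, or −3.07 with 3 genes so set, and −0.54 over all genes, or −0.87. The share of calls that were higher on the Sftpc side, 58.2%, was 92.9% with both marker genes in the totals, 61.0% without mitochondrial and ribosomal protein genes and 82.6% with median-of-ratios scaling, at medians of 1.08, −0.51 and 0.37. The direction of the alveolar type 2, club cell and xenobiotic metabolism medians held under these 3 scalings.

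**Figure D3:**
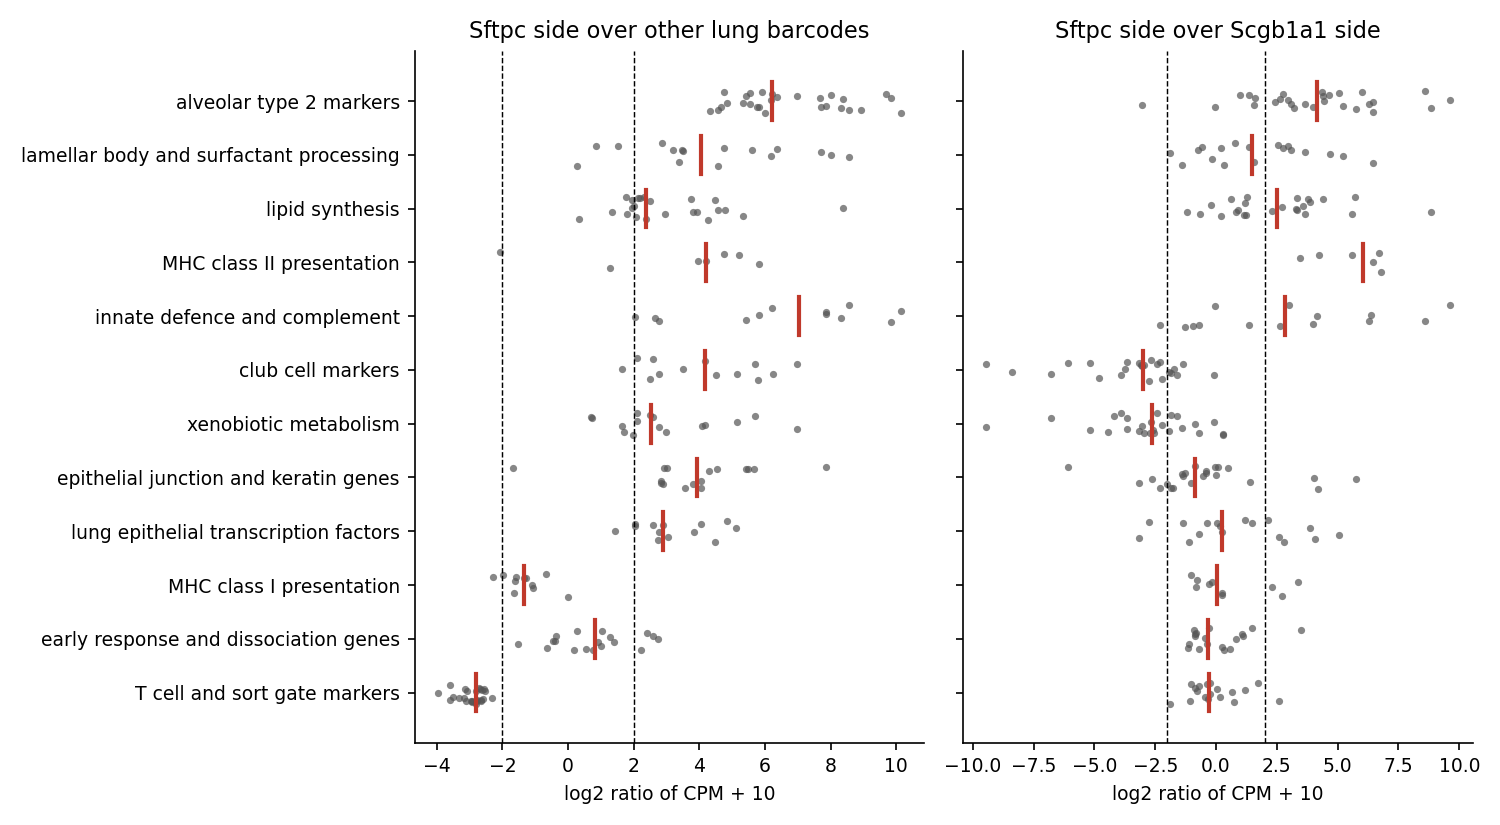
Log2 ratio of CPM + 10 (x axis) of each counted gene in 12 lists, for the Sftpc side over other lung barcodes (left) and over the Scgb1a1 side (right). Each point is a gene, red bars are list medians and dashed lines mark 4-fold. Alveolar type 2 genes lie to the right on the left panel and, except Cbr2 and a few near 0, on the right panel, and club cell genes lie to the right on the left panel (median 4.18) and to the left on the right panel (median −3.00).

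Promoters are shown for 3 leading genes of the Sftpc side and 2 of the Scgb1a1 side, since these genes were high together in the same barcodes. They are RefSeq sequences of mouse build GRCm38.p6, 5′ to 3′ on the strand of the gene, from 250 bases before the RefSeq start up to the last base before the start in both RefSeq and GENCODE M21. They lie at chr14:41131538-41131781, plus strand, at chr6:72304360-72304609, plus strand, at chr10:117282322-117282522, minus strand, at chr7:27119705-27119908, plus strand and at chr11:120732115-120732271, minus strand. Capitals mark CAAGTG, the core that NKX2-1 binds, on either strand, and TATAAA on the gene's strand.
Sftpa1: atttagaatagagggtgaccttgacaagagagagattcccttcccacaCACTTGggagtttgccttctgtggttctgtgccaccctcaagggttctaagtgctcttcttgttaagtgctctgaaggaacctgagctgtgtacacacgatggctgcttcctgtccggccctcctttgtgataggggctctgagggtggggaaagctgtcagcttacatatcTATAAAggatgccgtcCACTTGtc
Sftpb: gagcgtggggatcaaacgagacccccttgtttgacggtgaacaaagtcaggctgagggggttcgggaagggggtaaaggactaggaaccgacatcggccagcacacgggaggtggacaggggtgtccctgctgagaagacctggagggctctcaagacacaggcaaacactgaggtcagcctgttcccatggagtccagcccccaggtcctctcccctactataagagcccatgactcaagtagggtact
Lyz2: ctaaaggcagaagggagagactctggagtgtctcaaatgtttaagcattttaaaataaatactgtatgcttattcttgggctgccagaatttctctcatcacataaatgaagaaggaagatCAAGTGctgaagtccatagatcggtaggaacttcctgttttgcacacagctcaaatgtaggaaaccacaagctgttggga
Cyp2f2: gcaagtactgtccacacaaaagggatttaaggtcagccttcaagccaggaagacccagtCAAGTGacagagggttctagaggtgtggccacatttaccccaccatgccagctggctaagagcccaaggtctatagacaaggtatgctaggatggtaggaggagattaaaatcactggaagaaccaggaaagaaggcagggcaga
Cbr2: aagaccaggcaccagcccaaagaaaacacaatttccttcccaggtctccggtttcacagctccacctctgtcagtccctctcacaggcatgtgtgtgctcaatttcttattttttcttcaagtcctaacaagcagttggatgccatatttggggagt
The core began 202 and 14 bases before the RefSeq start of Sftpa1, 129 bases before that of Lyz2 and 191 bases before that of Cyp2f2, and TATAAA began 30 bases before that of Sftpa1. Neither motif was found in the windows of Sftpb and Cbr2. Among the 15 genes of highest ratio to other lung barcodes, 12 of the Sftpc side and 11 of the Scgb1a1 side matched a RefSeq promoter, and 4 and 5 of these held CAAGTG within 250 bases, against 13.2% of 27025 genes. TGTTTAC, a core bound by FOXA factors, was in 2 and 0 of them on either strand, against 3.54%, and TATAAA on the gene's strand in 2 and 2, against 8.94%. The 15 genes of the sides overlap, since Sftpa1, Sftpb, Sftpd, Cxcl15, Wfdc2 and Cbr2 are among both. Sftpa1 thus counts for CAAGTG, and Sftpa1 and Cxcl15 for TATAAA, on both sides, so the counts of the sides are not separate. The motifs searched do not overlap each other in letters. A match describes the letters and is not a measured site.

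By the ratio of variance to mean, the barcodes of the Sftpc side varied most in Lyz1 and Malat1. After each of 51 barcodes of the Sftpc side was thinned to 1000 UMIs, 267 genes averaged at least 0.5 UMI, and their median ratio of variance to mean over barcodes was 1.17. The highest ratios were 30.6 for Lyz1, 24.8 for Malat1, 14.3 for Lyz2 and 5.20 for Sftpa1. They were followed by Actb at 3.90, Cxcl15 at 3.27, Scd1 at 3.09, Tmsb10 at 2.93, mt-Co1 at 2.92 and Fos at 2.77. On the Scgb1a1 side 2 of 7 barcodes reached 1000 UMIs, and no such ratio was computed.

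Lyz1, a second lysozyme gene that neighbours Lyz2, was split between barcodes. In 9 barcodes of the Sftpc side it ran from 7.16 to 51.3 UMIs per 1000, and these held 98.7% of its UMIs on that side. In the other 43 it was at most 0.955 per 1000, with 36 at 0. Lyz2 ran over 9.36, 42.0 and 82.2 per 1000 in the 9 and over 15.5, 50.9 and 106 per 1000 in the 43. Across the 52 barcodes the Spearman correlation of the pair was −0.10. Median depth was 4267 and 4307 UMIs and median mitochondrial share 3.58% and 3.28% in the 9 and the 43. Lyz1 and Lyz2 are near-identical paralogs that can share reads, so the assignment of UMIs between them is uncertain.

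Malat1, a nuclear RNA, had a median of 14.0 UMIs per 1000 on the Sftpc side, with a range of 0.596 to 105, 3.92 on the Scgb1a1 side and 27.4 in other lung barcodes. Mitochondrial genes took a median of 3.32% of UMIs on the Sftpc side, 0.507% on the Scgb1a1 side and 2.43% in other lung barcodes, both marker genes included. The low share on the Scgb1a1 side depends on that choice, since the marker genes took a median of 74.9% of UMIs there. With both left out, mitochondrial genes took 7.48% of summed UMIs on the Scgb1a1 side and 2.52% in other lung barcodes, with the Sftpc side between. The deepest barcode held 72.4% of the summed UMIs of the Scgb1a1 side, so 7.48% does not describe its barcodes alike. Across the 52 barcodes Malat1 and the mitochondrial share correlated at a Spearman coefficient of 0.54, Sftpa1 and Sftpb at 0.49 and Sftpa1 and Cxcl15 at 0.55. These coefficients describe barcodes of 1 library that differ in depth.

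Alveolar type 1 genes were present in part. Ager, a receptor gene used as a type 1 marker, had 0, 6 and 28 UMIs per barcode on the Sftpc side and stood at 1565 CPM (1415 to 1726), against 463 CPM on the Scgb1a1 side and 14.9 CPM in other lung barcodes. The deepest barcode held 24 of the 28 type 1 UMIs of the Scgb1a1 side. Without it the log2 ratio of Ager to other lung barcodes went from 4.25 to 3.14. Aqp5, a water channel gene, stood at 412 CPM on the Sftpc side against 2.31 CPM in the others. Of 20 type 1 genes 11 did not reach 50 CPM, and the 9 that did, through the Sftpc side alone, were 4-fold higher, 8 of them without the 8 mixed barcodes. Of the defining genes Hopx had 2 UMIs, 7.84 CPM, against 26.2 CPM in other lung barcodes, and Pdpn, Igfbp2, Col4a3 and Spock2 had 0 on the Sftpc side. The 20 ciliated cell genes summed to 102 UMIs in 36 of 52 barcodes of the Sftpc side and to 11 on the Scgb1a1 side. Of these Tubb4b, a tubulin gene, held 51 and Tppp3, another gene of microtubules, 37 on the Sftpc side, where Tppp3 stood at 145 CPM against 16.4 CPM in other lung barcodes, while Foxj1, the ciliated cell factor gene, had 0 UMIs in the members. The 10 basal cell genes summed to 57 UMIs in 34 of 52 barcodes of the Sftpc side and to 8 on the Scgb1a1 side, all of Icam1, an adhesion molecule gene, at 224 CPM on the Sftpc side against 37.6 CPM in other lung barcodes. Krt5, Trp63 and Krt14 had 0 UMIs in the members. The goblet and neuroendocrine lists summed to 7 and 4 UMIs on the Sftpc side. The proliferation list summed to 146 UMIs there, of which Stmn1 held 114, with 1 for Mki67 and 0 for Top2a and Cdk1.

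Genes of the sort gate were low in the members. Of 26 T cell genes 25 reached 50 CPM on the Sftpc side or in other lung barcodes. Of these 0 were 4-fold higher and 25 were 4-fold lower on the Sftpc side (median log2 ratio −2.80). Over all genes 14.7% were higher and 7.45% lower. Of the 25, 13 were counted through the other lung barcodes alone, so the count is a description. On the Scgb1a1 side 20 of 25 counted were 4-fold lower and 0 higher, against 16.3% and 22.8% of all genes. Under the 10 UMI rule 6 of 8 were lower, against 10.6% of 329 genes. Cd3 and T cell receptor genes ran over 0, 1 and 49 UMIs per barcode on the Sftpc side, over 0, 1 and 8 on the Scgb1a1 side and over 0, 14 and 132 in other lung barcodes. At least 3 such UMIs were found in 15 of 52, 1 of 7 and 97.0% of 8582 barcodes in these sets. Thinned to 500 UMIs each, 11 of 51 barcodes of the Sftpc side had such a UMI, 21.6% (11.3 to 35.3), as did 3 of 7 on the Scgb1a1 side and 92.5% of 8580 others, while unthinned shares were 78.8%, 71.4% and 98.7%. Thinning left out 1 barcode of the Sftpc side and 2 others. Foxp3 had 0 UMIs in the 59 members, which allows a level of up to 11.8 CPM on the Sftpc side and 174 CPM on the Scgb1a1 side, against 13.3 CPM in other lung barcodes, so that no difference in Foxp3 was detectable at this depth. Ptprc, the CD45 gene, had 12 UMIs on the Sftpc side and 1 on the Scgb1a1 side.

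**Figure D4:**
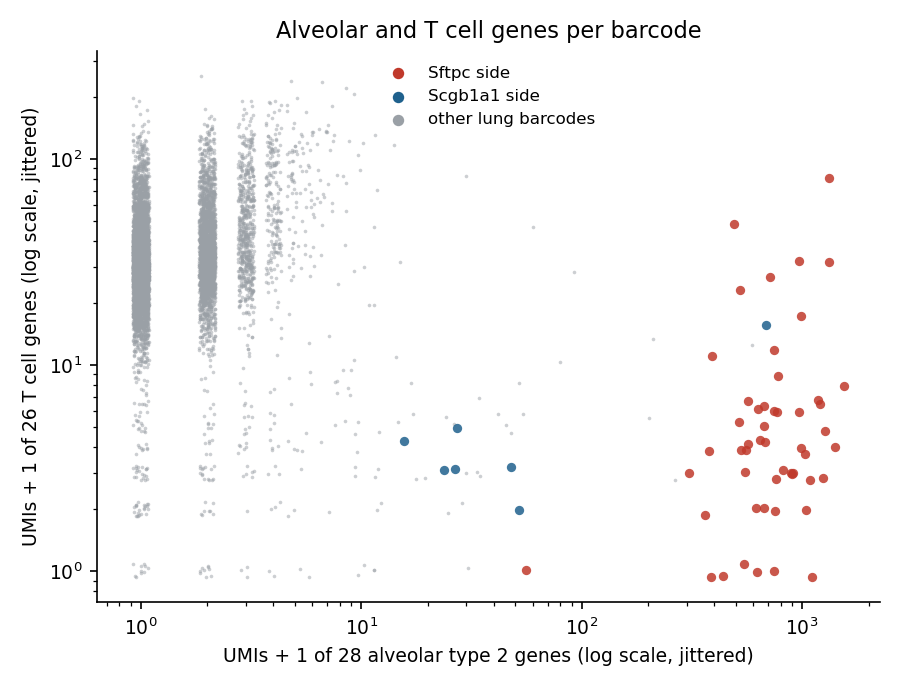
UMIs plus 1 of 28 alveolar type 2 genes (x axis) and of 26 T cell genes (y axis) per lung barcode, both on log scales with jitter, for the Sftpc side, the Scgb1a1 side and other lung barcodes. The Sftpc side lies to the right at 0 to 83 T cell UMIs, with 6 barcodes at 20 or more.

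Some members held genes of other cell types, listed here with the barcodes that hold them. The 6 barcodes of the Sftpc side with at least 20 T cell UMIs held 60.7% of that side's T cell UMIs. A further 2 barcodes with at least 100 fibroblast UMIs, 311 and 258, held 78.8% of its fibroblast UMIs, and 1 of the pair also held 148 endothelial UMIs, where the next highest barcode held 39. Fibroblast genes were at 0, 2 and 311 UMIs per barcode on the Sftpc side, with 1 UMI in all on the Scgb1a1 side. Gsn and Mgp, at 855 and 776 CPM on the Sftpc side against 194 and 192 CPM in other lung barcodes, rest on that pair. In the 44 barcodes and 186423 UMIs that remain without these 8 mixed barcodes, Gsn stood at 150 CPM and Mgp at 59.0 CPM. In the same 44 barcodes Sftpa1 stood at 42296 CPM, Lyz2 at 60379 CPM, Cd74 at 6732 CPM and H2-Aa at 1218 CPM, and Trbc2, a T cell receptor gene, at 107 CPM, against 212 CPM in all 52.

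Outside the members the same genes were found at low levels. In other lung barcodes the 25 alveolar type 2 genes with at least 100 UMIs on the Sftpc side stood at 0.0475% (Sftpd) to 3.03% (Lpcat1) of their level there, with a median of 0.0891%. Sftpa1, Sftpb, Sftpd, Cxcl15 and Slc34a2, which had at least 500 UMIs on the Sftpc side and 0 in skin, kept within 0.0475% to 0.0679%. The genes above 1%, Cd74, Abca3, Lpcat1, Fabp5 and Rnase4, also had UMIs in skin barcodes. Among club cell genes, Cyp2f2 in other lung barcodes stood at 0.0190% and Selenbp1 at 0.177% of the level on the Scgb1a1 side. Sftpa1, Sftpb or Sftpd had a UMI in 9.59% of the other lung barcodes, or 2.09% (1.79 to 2.41) after thinning to 500 UMIs. The T cell UMIs of most members, a median of 3 for 26 genes on the Sftpc side, were not compared with free RNA from T cells, and their source was not tested.

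**Figure D5:**
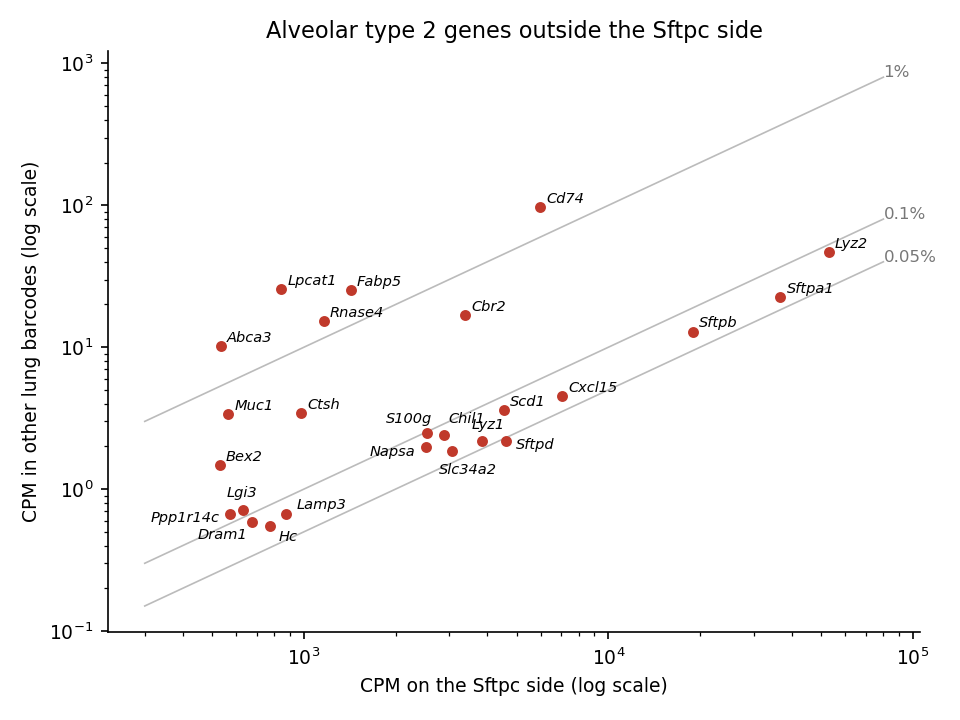
Level of 25 alveolar type 2 genes in other lung barcodes (y axis, CPM, log scale) against their level on the Sftpc side (x axis, CPM, log scale). Grey lines mark 0.05%, 0.1% and 1% of the Sftpc side's level, and 14 genes lie below 0.1%.

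Early response genes, which tissue digestion is known to induce, were also counted. Of 18 that reached 50 CPM, of 20, 4 were 4-fold higher on the Sftpc side than in other lung barcodes and 0 lower, against 14.7% and 7.45% of all genes, with a median log2 ratio of 0.83. The 2 barcodes with the most fibroblast UMIs, 311 and 258, held 258 and 429 of the side's 2049 early response UMIs. Without the 8 mixed barcodes 2 of the 18 were 4-fold higher, with a median of 0.26. Egr1 stood at 318 CPM on the Sftpc side and 204 CPM without these 8, against 44.6 CPM in other lung barcodes, and was under 4-fold without them, as was Fosb at 85.8 CPM, against 263 CPM with them. Atf3 stood at 133 against 11.6 CPM, whereas Junb stood at 874 against 1358 CPM. Junb and Fos stood at 1215 and 2315 CPM on the Scgb1a1 side. There the deepest barcode and the one of 1194 UMIs held 145 and 44 of the 203 early response UMIs, while the median of the 7 barcodes was 3. These levels therefore do not describe the 7 barcodes alike.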

How the data were processed

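The lung and skin samples were each deposited, per the file headers, as matrices of UMI counts per gene and barcode, with no normalization by the authors in the values. Per the submitters' processing notes they were made with Cell Ranger on mm10, with no version named, and the software version in the lung file headers is 3.0.2. A second lung table of the same barcodes served as an alternative. The members, gene lists and thresholds were chosen with earlier results of these data known.

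Counts were summed per set without Sftpc and Scgb1a1 and scaled to CPM. Genes with at least 50 CPM in either set were called apart at 4-fold on log2(CPM + 10), which understates differences of low genes. No test was possible with 1 library per tissue, and none was run. Intervals at 95% are exact: Poisson for levels, conditional binomial for ratios, Clopper-Pearson for shares. For shares and spread, barcodes were thinned to 500 or 1000 UMIs with a fixed seed.

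Named genes are list members, the 15 highest and 15 lowest ratios of each comparison among genes with at least 100 CPM on either side, and the 10 genes of highest variance over mean. T cell receptor and immunoglobulin segments and mt-, Rpl, Rps, Gm and Rik names were left out of the rankings. Scrublet in scanpy 1.11.5 marked 0% of barcodes as doublets and so did not work. As an alternative the 580 barcodes (6.71%) with the highest scores were removed, a limit of 6% with its ties, and 0 of them were members. Gene positions are from GENCODE M21. The scripts, in Python 3.11.15 with numpy 2.4.6 and scipy 1.17.1, were tested on simulated counts.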

Additional observations from a re-analysis of the deposited data

How the results depend on the processing

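The alternatives were other limits for the marker UMIs, genes and mitochondrial share, other totals, pseudocounts and floors, the second lung table, doublet scores and barcodes left out. The number of members, 59, ranged from 43 to 61. The 724 genes apart between the Sftpc side and other lung barcodes ranged from 627 to 952. The 1749 genes apart between the Scgb1a1 side and other lung barcodes ranged from 1174 to 2488 and became 122 under the 10 UMI rule, and the 1231 genes apart between the sides became 64, since few genes reach it. The comparison of the sides gave 563 genes with both marker genes in the totals, 2105 with a floor of 20 CPM, 2105 with no floor, 2148 without members with at least 3 T cell receptor UMIs and 2218 without the deepest barcode of the Scgb1a1 side.

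Of 1938 values of single genes and 986 list medians, signs changed for 5 and 5 whose ratio was 4-fold or more, and for 17 and 52 whose ratio was under 4-fold. Gsn went to −0.35 on the Sftpc side over other lung barcodes without the 8 mixed barcodes, where Mgp and Aldh1a1, under 4-fold with them, were at −1.55 and −0.36. On the Scgb1a1 side over the others, Napsa went to −0.26 and Nkx2-1 to −0.059 without the deepest barcode, which is also the one with at least 3 T cell receptor UMIs. With no floor the medians there were −0.080 for alveolar type 1, −0.10 for cytokine and −0.027 for innate defence genes. Between the sides the cytokine median was 0.21 with a floor of 20 CPM and 0.84 with none. The cause was not tested. A further 202 single gene values and 156 list medians moved by over 1.5 times without a change of sign. No paired analysis was possible because each tissue has 1 library. The 4766 UMIs outside the deepest barcode limit what the Scgb1a1 side can show.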

Other observations

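Several genes outside the groups described above stood apart. Pdcd4, a translation inhibitor gene, had 0 UMIs on the Sftpc side and stood at 217 CPM in other lung barcodes, and Vps37b, an endosomal sorting gene, stood at 51.0 against 940 CPM. Cd36, a fatty acid receptor gene on the endothelial list, stood at 816 CPM on the Sftpc side, 868 CPM on the Scgb1a1 side and 35.8 CPM in other lung barcodes, while Pecam1, an endothelial adhesion gene, stood at 35.3, 0 and 117 CPM in these sets. Nupr1, a stress response gene, stood at 1255 CPM on the Sftpc side, 1331 CPM on the Scgb1a1 side and 13.1 CPM in the others. Car8, a carbonic anhydrase related gene, stood at 345, 405 and 1.26 CPM. At 57.9 CPM per UMI, the levels of Cd36 and Car8 on the Scgb1a1 side rest on few UMIs. Pgrmc1, a haem binding membrane gene, had 14, 0, 3, 0, 1, 0 and 4 UMIs in the 7 barcodes of the Scgb1a1 side and 5 UMIs in all 52 of the Sftpc side.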
